A study of Mus musculus with 12 samples.

Results

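Albumin and 9 other genes that mark the hepatocyte were followed across the livers of lean mice, of mice on a high-fat diet and of mice on that diet treated with an mRNA for NM-FGF19, a non-mitogenic form of the hormone FGF19. The 10 genes are Alb, Ttr, Ahsg, Trf, Rbp4, Ambp, Apoh, Gc, Serpina1a and Asgr1. They were taken by symbol from the deposited counts: 9 encode proteins that the liver secretes into plasma, and Asgr1 encodes a receptor on the hepatocyte surface. All 10 were among the 55359 genes in the table, and 10 of 10 were among the 15274 genes abundant enough to be tested.

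The livers came from male C57BL/6NTac mice, given as 24 weeks old in the description of the study, with 4 libraries in each of 3 groups. Lean mice ate normal chow and received Control-mRNA, HFD control mice ate the high-fat diet and received Control-mRNA, and NM-FGF19 mice ate the high-fat diet and received NM-FGF19 mRNA. All 3 groups therefore received mRNA in lipid nanoparticles (mRNA-LNPs), once a week for 6 weeks, with sampling of the liver 24 hours after the final one. The length of the diet is given as 21 weeks in one place and 28 weeks in another, and the count columns of the HFD control group carry the name mOX40L.

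Hepatocytes make most of the soluble protein of blood plasma, and their secretory genes are among the most abundant messages in the liver. Albumin keeps water in the vessels and carries fatty acids, while other plasma proteins carry iron, retinol, thyroid hormone or vitamin D, or inhibit proteases. Several of them, albumin, transthyretin, transferrin and retinol-binding protein included, are known as negative acute phase proteins, whose synthesis falls during inflammation. FGF19, the human counterpart of mouse Fgf15, is a gut hormone that acts on hepatocytes and lowers bile acid synthesis.

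The promoters of Alb, Afp, Afm and Gc are shown first because these genes belong to the albumin family, and their values are set side by side below. Serpina1a and Ambp follow as the members called lower on the high-fat diet. Each sequence is the stretch of 250 bases before the RefSeq start (GRCm38.p6), written 5′ to 3′ on the gene's own strand, and capitals mark the CCAAT box, the letters CCAAT or their reverse complement.
Alb (chr5:90460620-90460869, plus strand): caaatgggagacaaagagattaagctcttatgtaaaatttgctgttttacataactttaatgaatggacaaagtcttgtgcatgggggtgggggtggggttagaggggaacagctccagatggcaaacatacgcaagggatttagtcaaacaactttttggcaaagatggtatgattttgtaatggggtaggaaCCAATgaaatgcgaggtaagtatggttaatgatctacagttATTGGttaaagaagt
Afp (chr5:90490464-90490713, plus strand): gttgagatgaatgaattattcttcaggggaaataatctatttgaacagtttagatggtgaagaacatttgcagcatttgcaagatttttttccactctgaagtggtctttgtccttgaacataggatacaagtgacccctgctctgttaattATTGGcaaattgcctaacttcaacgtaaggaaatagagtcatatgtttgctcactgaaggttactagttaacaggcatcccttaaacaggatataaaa
Afm (chr5:90518699-90518948, plus strand): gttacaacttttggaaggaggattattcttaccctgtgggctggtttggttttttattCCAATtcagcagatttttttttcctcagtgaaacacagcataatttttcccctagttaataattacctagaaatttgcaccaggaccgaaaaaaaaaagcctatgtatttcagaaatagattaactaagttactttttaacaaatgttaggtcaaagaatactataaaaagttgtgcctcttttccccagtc
Gc (chr5:89457899-89458148, minus strand): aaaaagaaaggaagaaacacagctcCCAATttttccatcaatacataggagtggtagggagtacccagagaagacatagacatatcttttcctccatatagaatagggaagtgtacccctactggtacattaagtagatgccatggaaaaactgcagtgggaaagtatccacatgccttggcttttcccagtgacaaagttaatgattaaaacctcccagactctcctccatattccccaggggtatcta
Serpina1a (chr12:103863620-103863869, minus strand): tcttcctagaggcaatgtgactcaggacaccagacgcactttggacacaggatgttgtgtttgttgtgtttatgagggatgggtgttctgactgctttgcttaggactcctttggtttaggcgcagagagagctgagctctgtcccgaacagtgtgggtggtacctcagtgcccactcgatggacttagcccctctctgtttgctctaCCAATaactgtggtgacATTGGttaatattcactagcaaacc
Ambp (chr4:63154173-63154422, minus strand): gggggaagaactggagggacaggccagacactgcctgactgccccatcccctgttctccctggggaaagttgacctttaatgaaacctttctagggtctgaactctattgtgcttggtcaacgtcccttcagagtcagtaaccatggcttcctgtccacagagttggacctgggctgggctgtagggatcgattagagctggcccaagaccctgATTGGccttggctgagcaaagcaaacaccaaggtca

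The CCAAT box is a short promoter element bound by the factor NF-Y. The letters, searched on both strands, occurred in all the promoters shown. The table held 10 promoters of 8 members, with 2 starts each for Rbp4 and Asgr1, and 6 of the 10 held the letters, against 33.8% of 32851 mouse promoters of the same length. The letters TTNTGTAA, which the PAR bZIP and C/EBP factors recognise, occurred in Alb and Apoh, 2 of 10 member promoters against 3.51% of all. TATAAA occurred in 1 of 10, at a start of Rbp4, and in 12.4% of all, and TNTTTAC, a FOXA motif, in 2 of 10 (Apoh and Rbp4) and in 10.9% of all. The motifs overlap in places, a match is a description of letters only, and the promoters of Ttr and Trf were not analysed here.

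Libraries held 23743415 to 33257260 counts, and TMM factors, which correct the totals for a few very abundant genes, ran from 0.779 to 1.17. HFD control libraries were the deepest (32284438 to 33257260) and had the highest factors. Levels below are CPM on the TMM-scaled total, and a share is the percentage of the plain library total. Replacing the TMM-scaled by the plain totals moved the median log2 change of all genes by 0.31 in HFD control against lean, by -0.13 in NM-FGF19 against HFD control and by 0.18 in NM-FGF19 against lean. The direction of a small change therefore depends on the scale. Lean 3 stood apart from its group: its positive acute phase messages (21 genes such as Saa1 and Orm2) summed to 229108 CPM, against 60716 to 104816 CPM in the other lean libraries and 38380 to 56551 CPM in all libraries of the high-fat diet. It also had the lowest TMM factor. HFD control 3 was the library of its group with the lowest Ahsg, Ambp, Serpina1a and Apoh. The same library had the highest Trf of its group (20065 CPM) and the highest Alb share (4.53%). Results are given without these libraries where they rest on them. In whole liver, fewer hepatocytes and less RNA per hepatocyte cannot be told apart.

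The 10 genes together took 10.2 ± 0.748% of all counts in lean liver (SD, n = 4), 8.24 ± 1.16% in HFD control and 13.4 ± 2.16% in NM-FGF19. Shares ran from 9.48 to 10.9% in lean, from 6.97 to 9.25% in HFD control and from 10.6 to 15.2% in NM-FGF19, so HFD control lay below both other groups without overlap. Most of the rise from HFD control to NM-FGF19 was in Alb. Without Alb, the other 9 genes took 5.34 ± 0.487% in lean, 4.55 ± 0.226% in HFD control and 5.80 ± 0.534% in NM-FGF19, with 4.32 to 4.81% in HFD control against 5.09 to 6.36% in NM-FGF19. Alb made up 47.5 ± 3.29% of the counts of the 10 genes in lean, 44.2 ± 5.67% in HFD control and 56.3 ± 3.62% in NM-FGF19. The share of mitochondrial transcripts differed little, at 4.85 ± 0.175%, 4.98 ± 0.496% and 4.99 ± 0.528% in the same order.

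**Figure D1:**
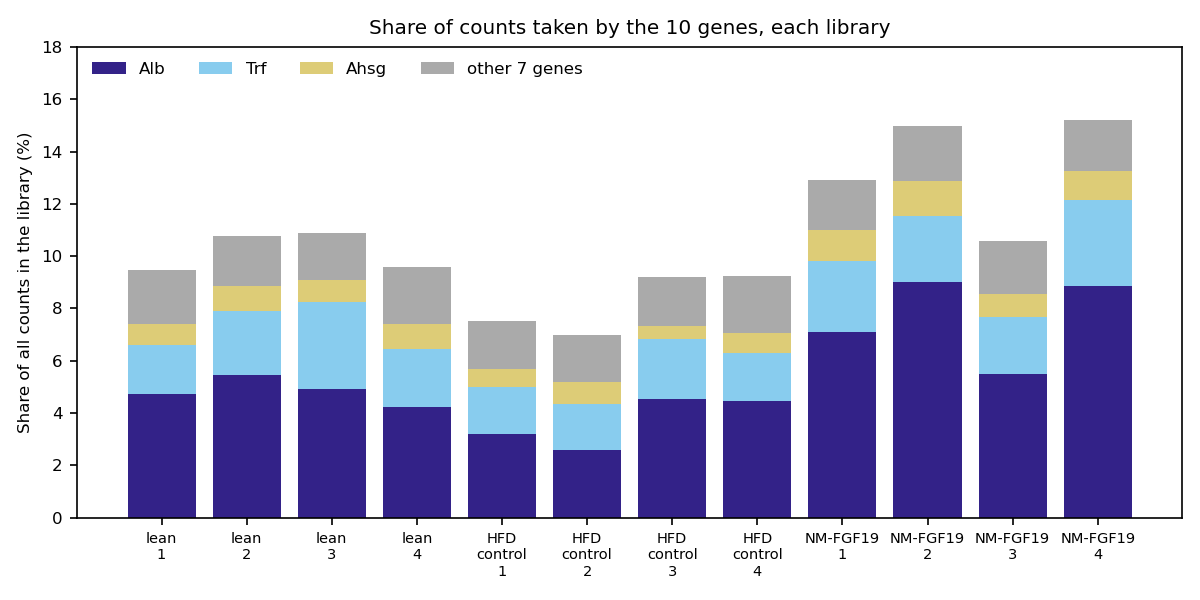
Share of all counts in each of the 12 libraries (y axis, percent of the library total) taken by Alb, Trf, Ahsg and the other 7 genes (stacked bars). The 4 HFD control libraries stand at 6.97 to 9.25% and the 4 NM-FGF19 libraries at 10.6 to 15.2%.

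HFD control against lean asked what the high-fat diet did in mice given the same Control-mRNA. By edgeR's quasi-likelihood test, 2 of 10 members fell (Ambp and Serpina1a), 0 rose and 8 did not pass an adjusted p of 0.05. Of all tested genes 3.29% were called lower and 5.04% higher. At an unadjusted p under 0.05, 7 members differed. The share of all genes at that level is not given here, so this count has no background to be read against. The median log2 change of the 10 was -0.55, against -0.02 over all genes tested. In 6 members (Alb, Ahsg, Ambp, Apoh, Gc and Serpina1a) all HFD control libraries lay below all lean libraries in CPM, which held for 6.89% of all genes. As shares of plain totals, 1 member was called lower (Ambp, log2 change -0.56, adjusted p = 0.0371), against 1.49% of all genes (15.6% were called higher), and the median was -0.22 against 0.29 over all genes. The shares did not overlap, with HFD control below lean, in 2 members (Ambp and Serpina1a), against 1.74% of all genes. DESeq2 called 7 of 10 lower (6.04% of all genes), and limma voom 2 of 10 (3.06%). Leaving out HFD control 1 or HFD control 3 gave 0 called members, and leaving out lean 2 or lean 4 gave 1.

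NM-FGF19 against HFD control asked what the therapeutic mRNA did on the same diet. The member that differed most was Alb, 2.26-fold higher and just short of the threshold. By edgeR 0 of 10 members were called, where 0.282% of all genes were called higher and 0.151% lower. At an unadjusted p under 0.05, 4 members differed, again with no share of all genes to set that count against. DESeq2 called 3 of 10 higher (Alb, Ahsg and Serpina1a) where it called 1.25% of all genes higher. All 10 fitted changes were positive on the TMM scale, with a median of 0.29 against 0.00 over all genes, and those of Ttr, Rbp4 and Asgr1 turned negative on plain totals. In 4 members (Alb, Ahsg, Trf and Serpina1a) every NM-FGF19 library lay above every HFD control library, which held for 3.23% of all genes. As shares, 3 members did so (Alb, Ahsg and Serpina1a), against 1.36% of all genes. Leaving out NM-FGF19 3 gave 1 called member, Alb, and so did testing without a filter on low counts (0.178% of all genes called higher).

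NM-FGF19 against lean asked how treated mice on the high-fat diet stood against lean mice. By edgeR 0 of 10 members were called, where 1.01% of all genes were called higher and 0.484% lower. At an unadjusted p under 0.05, 1 member differed (Ambp), also with no share of all genes beside it. DESeq2 called 1 member lower, the same Ambp (2.42% of all genes). The median log2 change was -0.07 on the TMM scale and 0.13 on plain totals. In 2 members (Ambp and Gc) every NM-FGF19 library lay below every lean library, against 4.84% of all genes. As shares, 1 member (Alb) lay above lean without overlap, against 10.8% of all genes. Ambp still lay below lean without overlap on that scale, with no share of all genes given beside it, while Gc overlapped lean. This comparison shares libraries with each of the others, so their values are set side by side and not related to each other.

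**Figure D2:**
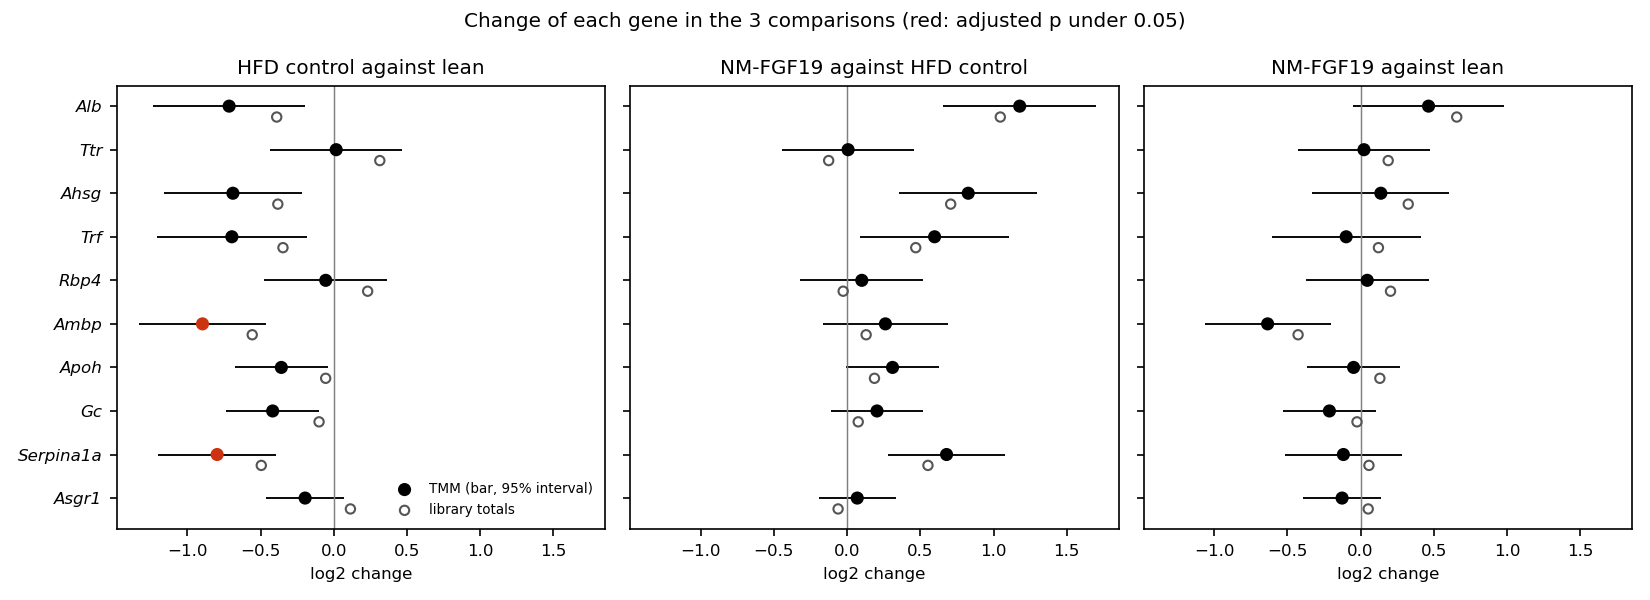
Log2 change of each gene (x axis) in the 3 comparisons. Filled points are TMM-scaled fits with 95% intervals, red where the adjusted p is under 0.05, and open points are fits on plain library totals. Only Ambp and Serpina1a in HFD control against lean are red, and Alb in NM-FGF19 against HFD control lies farthest to the right, at 1.18.

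Alb, the main protein of plasma, was the most abundant gene of the table in all 12 libraries. It stood at 48969, 60231, 63188 and 45766 CPM in the lean libraries. In HFD control it stood at 27324, 24364, 39306 and 41959.7 CPM, and in NM-FGF19 at 68244, 92798, 55021 and 84801 CPM. All HFD control libraries were below all others, and NM-FGF19 overlapped lean. Group means were 54539 ± 8470 CPM in lean, 33238 ± 8691 CPM in HFD control and 75216 ± 16906 CPM in NM-FGF19. NM-FGF19 against HFD control gave a log2 change of 1.18 ± 0.24 (SE, 95% interval 0.65 to 1.70, adjusted p = 0.0598). Across 19 alternatives the adjusted p ran from 3.5e-05 (DESeq2) to 0.208, and 3 of them called it. HFD control against lean gave -0.71 ± 0.24 (adjusted p = 0.0842). NM-FGF19 against lean gave 0.46 ± 0.24 (adjusted p = 0.359).

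As a share of all counts, Alb took 4.71, 5.46, 4.93 and 4.22% in lean, 3.21, 2.57, 4.53 and 4.44% in HFD control and 7.11, 8.999, 5.48 and 8.86% in NM-FGF19. On this scale HFD control overlapped lean, and the lowest NM-FGF19 library lay just above the highest lean one. Fitted on plain totals, the log2 change from HFD control to NM-FGF19 was 1.05 (adjusted p = 0.0758), and that from lean to HFD control was -0.39 (adjusted p = 0.245), against -0.71 on the TMM scale.

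**Figure D3:**
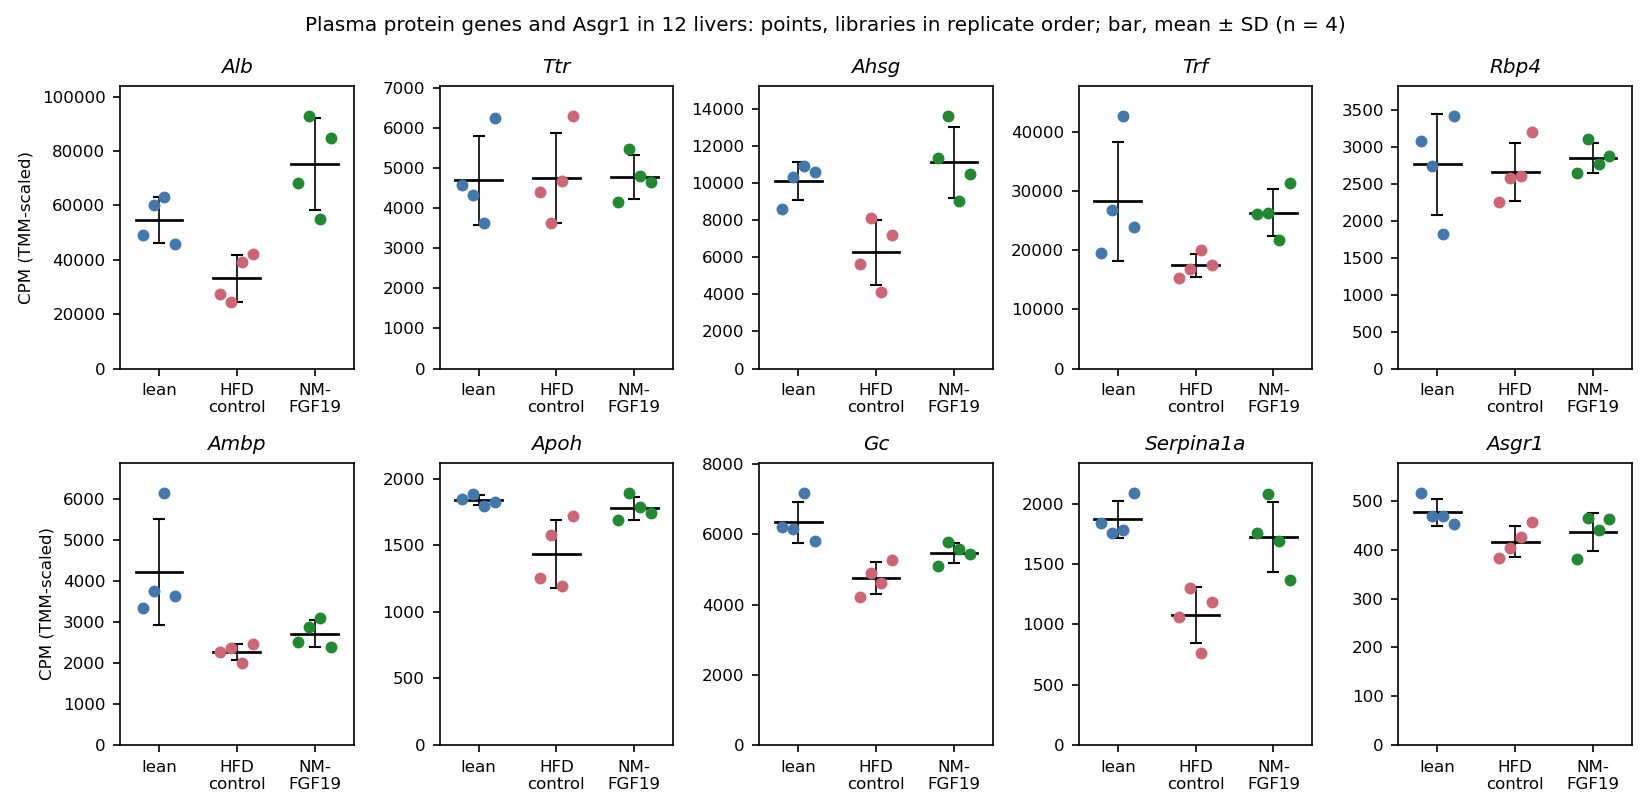
CPM of each of the 10 genes (y axes from 0, one scale per gene) in each library, by group, with mean and SD (n = 4). Alb is lowest in the HFD control libraries, at 24364 to 41959.7 CPM, and the Ttr and Rbp4 groups overlap.

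Among the carriers, transferrin (Trf), which carries iron, was next to Alb in level. It stood at 19520.5, 26897, 42698 and 23985.5 CPM in lean, at 15368, 16801, 20065 and 17596 CPM in HFD control and at 26089.8, 26242, 21811 and 31478 CPM in NM-FGF19. All NM-FGF19 libraries were above all HFD control libraries, and lean 3 was far above the other lean libraries. The log2 change was -0.70 ± 0.24 in HFD control against lean (adjusted p = 0.0864) and 0.60 ± 0.24 in NM-FGF19 against HFD control (adjusted p = 0.456). Neither passed. The change in HFD control against lean was -0.40 without lean 3, -0.48 without both lean 3 and HFD control 3, and -0.35 on plain totals.

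Transthyretin (Ttr) carries thyroid hormone and, bound to retinol-binding protein, retinol. Ttr stood at 4571, 4319, 3635 and 6232 CPM in lean, at 4394.5, 3628, 4663 and 6286 CPM in HFD control and at 4145, 5477, 4792 and 4642 CPM in NM-FGF19. The groups overlapped fully, with means of 4689, 4743 and 4764 CPM. The interval of the log2 change was -0.44 to 0.47 in HFD control against lean and -0.45 to 0.46 in NM-FGF19 against HFD control. These intervals leave room for a change of up to about 0.47 either way.

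Rbp4, the carrier of retinol in plasma, ran from 1816 to 3415 CPM in lean, from 2250.4 to 3203.5 CPM in HFD control and from 2643 to 3113 CPM in NM-FGF19. Its groups overlapped as well. The log2 change was -0.05 ± 0.20 in HFD control against lean and 0.10 ± 0.20 in NM-FGF19 against HFD control. Lean 3 held the lowest lean values of both Ttr and Rbp4. Within libraries the ratio of Ttr to Rbp4 counts was 1.72 ± 0.235 in lean, 1.78 ± 0.258 in HFD control and 1.67 ± 0.090 in NM-FGF19.

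Alb was also set against its fellow carrier Ttr within libraries, a comparison that no scaling between libraries touches. The ratio of Alb to Ttr counts was 10.7, 13.9, 17.4 and 7.34 in lean. It was 6.22, 6.72, 8.43 and 6.67 in HFD control and 16.5, 16.9, 11.5 and 18.3 in NM-FGF19. All NM-FGF19 values were above all HFD control values, while lean overlapped both groups. Against the summed counts of 36 other plasma protein genes the ratio of Alb overlapped, at 0.377 to 0.813 in HFD control and 0.791 to 1.40 in NM-FGF19, with 0.499 to 0.716 in lean.

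Gc, the vitamin D binding protein, stood at 6221, 6165, 7187 and 5812 CPM in lean, at 4213.5, 4911, 4614 and 5272 CPM in HFD control and at 5093, 5781, 5588 and 5435 CPM in NM-FGF19. Lean was above both other groups without overlap, and those groups overlapped each other. The log2 change was -0.42 ± 0.15 in HFD control against lean (adjusted p = 0.0953) and -0.10 on plain totals. It was 0.20 ± 0.15 in NM-FGF19 against HFD control (adjusted p = 0.757).

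The inhibitors came next. Ambp encodes a precursor that is cut into alpha-1-microglobulin, a heme and radical scavenger, and bikunin, a protease inhibitor. It stood at 3348, 3741, 6143 and 3635 CPM in lean, at 2257, 2359.9, 1992 and 2453 CPM in HFD control and at 2512, 2864, 3090.3 and 2395 CPM in NM-FGF19. Lean lay above both other groups without overlap, with lean 3 highest. In HFD control against lean Ambp fell 1.86-fold (log2 change -0.90 ± 0.20, adjusted p = 0.0185). Fits without 1 library gave log2 changes from -0.98 to -0.63, so the size of the fall depended on single libraries. Ambp was called in 15 of 19 alternatives, with an adjusted p of up to 0.0636, and lost without HFD control 1 or HFD control 3. NM-FGF19 against HFD control gave 0.26 ± 0.20 (adjusted p = 0.781) and NM-FGF19 against lean -0.64 ± 0.20 (adjusted p = 0.127). The change against lean ran from -0.73 to -0.38 without 1 library.

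Serpina1a encodes a form of alpha-1-antitrypsin, the main inhibitor of neutrophil elastase. It stood at 1841, 1760.3, 1782 and 2089.8 CPM in lean, at 1061, 1299.9, 758 and 1184 CPM in HFD control and at 1753, 2077, 1687 and 1370.5 CPM in NM-FGF19. HFD control lay below both other groups without overlap, and NM-FGF19 overlapped lean. In HFD control against lean Serpina1a fell (log2 change -0.80 ± 0.19, adjusted p = 0.0220), a call kept in 13 of 19 alternatives with an adjusted p of up to 0.0760. Leaving out lean 2, lean 4, HFD control 1 or HFD control 3 lost it, as did plain totals (-0.49). NM-FGF19 against HFD control gave 0.68 ± 0.19 (adjusted p = 0.187).

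Ahsg encodes fetuin-A, which inhibits the precipitation of calcium phosphate and the insulin receptor kinase. It stood at 8598, 10356, 10940.2 and 10586 CPM in lean, at 5644, 8110.5, 4139.8 and 7221 CPM in HFD control and at 11386, 13617, 9058 and 10485.5 CPM in NM-FGF19. HFD control was again below both other groups, and NM-FGF19 overlapped lean. The log2 change was -0.69 ± 0.22 in HFD control against lean (adjusted p = 0.0677), -0.38 on plain totals, and 0.83 ± 0.22 in NM-FGF19 against HFD control (adjusted p = 0.167).

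Apoh encodes beta-2-glycoprotein I, which binds anionic phospholipids. Its lean libraries lay close together, at 1848, 1881, 1797 and 1827 CPM, and its HFD control libraries spread over 1253, 1573.5, 1191 and 1719 CPM. NM-FGF19 stood at 1692, 1893, 1788.5 and 1738 CPM. The log2 change was -0.36 ± 0.15 in HFD control against lean (adjusted p = 0.154), but -0.055 on plain totals (adjusted p = 0.820), where the groups overlapped. It was 0.31 ± 0.15 in NM-FGF19 against HFD control (adjusted p = 0.576). Neither passed.

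Asgr1, the major subunit of the asialoglycoprotein receptor, takes up glycoproteins that have lost sialic acid and stays on the cell. It ran from 453 to 517 CPM in lean, from 382 to 456.5 CPM in HFD control and from 381 to 465 CPM in NM-FGF19. The log2 change was -0.20 ± 0.12 in HFD control against lean (adjusted p = 0.359) and 0.07 ± 0.12 in NM-FGF19 against HFD control (adjusted p = 0.938). Asgr2, the other subunit, had means of 225 ± 30.2, 187 ± 12.7 and 198 ± 15.5 CPM in lean, HFD control and NM-FGF19.

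Per kilobase of exon (union of GENCODE vM21 exons, an annotation older than that of the counts), Alb led in lean at 23287 ± 3616 CPM per kb, before Trf at 8517 ± 3037, Ahsg at 4606 ± 475, Ttr at 3954 ± 929, Gc at 3440 ± 319 and Ambp at 2993 ± 919 CPM per kb. Rbp4 (2057 ± 512), Apoh (1153 ± 22.1), Serpina1a (1020 ± 82.7) and Asgr1 (300 ± 17.4 CPM per kb) followed. Ahsg and Ttr, Ttr and Gc, Gc and Ambp, Ambp and Rbp4, and Apoh and Serpina1a overlapped between libraries in lean. Ahsg and Ambp, and Ttr and Ambp, overlapped there as well. Both genes of a pair are read in the same libraries, and their order within a library was not tested. In HFD control Ttr (3999 ± 943 CPM per kb) came before Ahsg (2858 ± 798), with overlap, and Rbp4 (1980 ± 296) before Ambp (1608 ± 141), with overlap too. In NM-FGF19 Ahsg (5069 ± 870 CPM per kb) was again before Ttr (4017 ± 464), with overlap, and Rbp4 (2122 ± 148) and Ambp (1927 ± 227) overlapped.

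The albumin family genes Afp, Afm and Gc lie with Alb on chromosome 5. In the RefSeq gene order Alb, Afp and Afm follow each other directly, and Gc lies 5 protein-coding genes before Alb. Albfm1, the next gene after Afm in that order, was not matched in the counts and is not covered here. Afp encodes alpha-fetoprotein, the plasma carrier of the fetus, and Afm encodes afamin, a carrier of vitamin E. Afp stood at 3.25, 3.57, 1.83 and 1.88 CPM in lean, at 2.19, 1.85, 2.51 and 1.51 CPM in HFD control and at 7.60, 6.73, 6.55 and 6.92 CPM in NM-FGF19. All NM-FGF19 libraries lay above all others, at a level far below that of Alb. Afp rose by 1.78 ± 0.25 on the log2 scale in NM-FGF19 against HFD control (adjusted p = 0.00786, called in 19 of 19 alternatives, adjusted p of up to 0.0423). It rose by 1.39 ± 0.25 in NM-FGF19 against lean (adjusted p = 0.0196, called in 15 of 19 and lost without lean 4, NM-FGF19 1 or NM-FGF19 4).

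Afm stood at 177, 197, 135 and 142 CPM in lean, at 127, 128, 110.3 and 154 CPM in HFD control and at 241, 358, 232 and 214 CPM in NM-FGF19. Again NM-FGF19 was above both groups without overlap. Afm rose by 1.01 ± 0.19 on the log2 scale in NM-FGF19 against HFD control (adjusted p = 0.0312). The call held in 9 of 19 alternatives and in 2 of 8 fits without 1 library, with an adjusted p of up to 0.127. It was lost without any one HFD control library, without NM-FGF19 1 and without NM-FGF19 2. On plain totals it was lost too (0.87, adjusted p = 0.0758). In NM-FGF19 against lean the log2 change was 0.68 ± 0.18 (adjusted p = 0.0877), and on plain totals it was called (0.85, adjusted p = 0.0350).

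The genes around Alb were read as well. Of 12 genes around Alb, 8 were tested. The 4 that are not in the family (Slc4a4, Cox18, Ankrd17 and Rassf6) had log2 changes of -0.38 to 0.29 in NM-FGF19 against HFD control, and 0 of 4 were called, where 0.282% of all genes were called higher and 0.151% lower. Within the family Afp and Afm were called, and Alb and Gc (0.20) were not. Differences in change between these genes were not tested. In HFD control against lean edgeR called 0 of these 4 family genes, where 3.29% of all genes were called lower and 5.04% higher. Their median log2 change was -0.40, and -0.09 on plain totals. DESeq2 called 2 of the 4 lower there (Alb and Gc), against 6.04% of all genes.

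**Figure D4:**
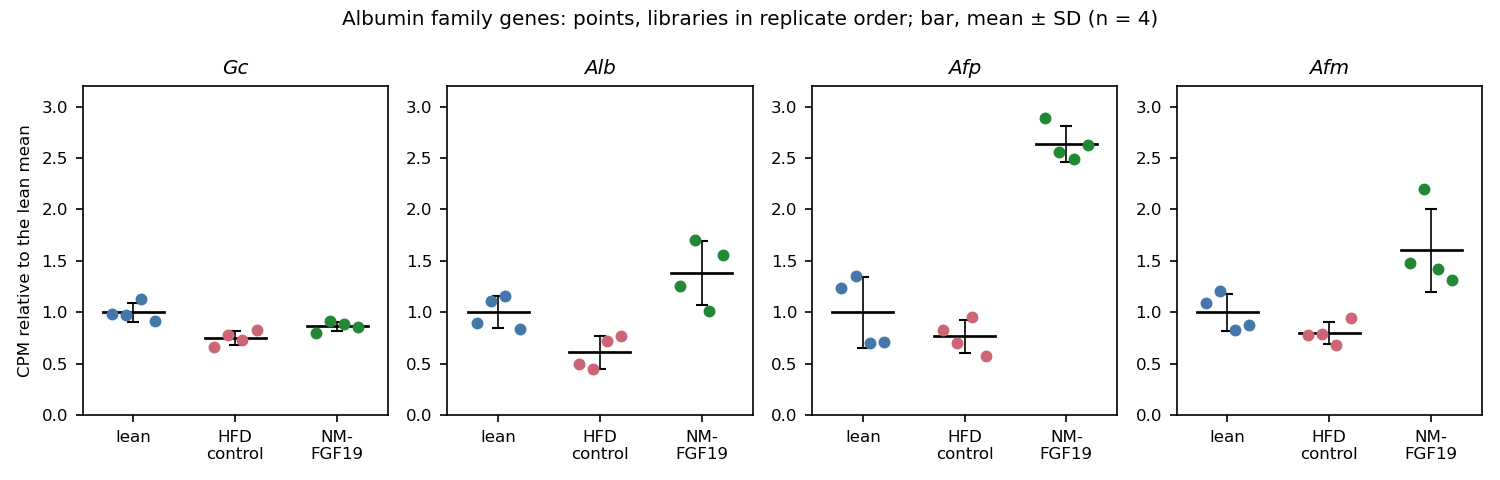
CPM of Gc, Alb, Afp and Afm divided by the gene's lean mean (y axis) in each library, by group, with mean and SD (n = 4). NM-FGF19 libraries of Afp and Afm lie above all others, while those of Gc overlap HFD control.

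Serpina1a belongs to a set of near-identical gene copies in the mouse, so reads can be split between copies and each copy's count is uncertain. None of the other 4 copies was called in any comparison by edgeR, and 2 of 4 were called lower in HFD control against lean once HFD control 2 was left out. DESeq2 called 3 of 4 lower in HFD control against lean (6.04% of all genes) and 1 of 4 higher in NM-FGF19 against HFD control (1.25%). Serpina1b had means of 3862 ± 373, 2608 ± 256 and 4439 ± 799 CPM in lean, HFD control and NM-FGF19. Its HFD control libraries lay below all others, with a log2 change of -0.57 ± 0.17 against lean (adjusted p = 0.0536). Serpina1e varied most: 12176, 19489, 20094 and 19725 CPM in lean, 3707, 10036, 296 and 1546 CPM in HFD control, and 11804, 6292, 10068 and 1985 CPM in NM-FGF19. Lean lay above both other groups, and within HFD control the copy spanned more than an order of magnitude. Its log2 change against lean was -2.20 ± 0.84 (adjusted p = 0.130).

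**Figure D5:**
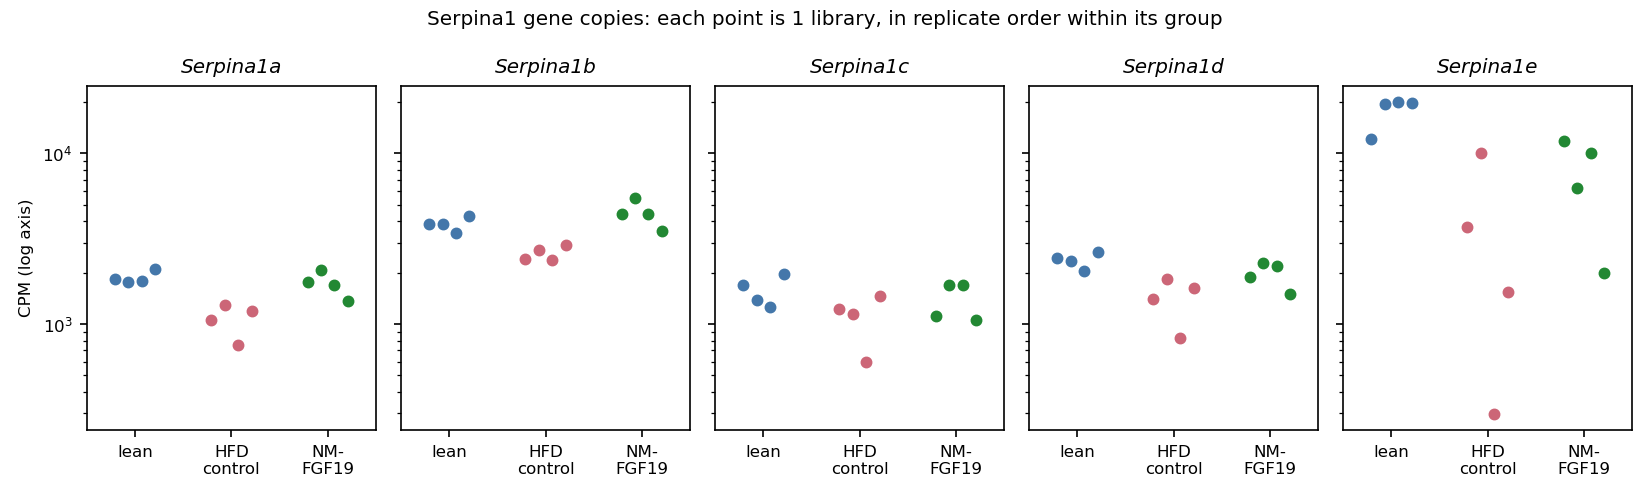
CPM (log axis) of the 5 Serpina1 copies in each library, by group. Serpina1e in HFD control runs from 296 to 10036 CPM, while Serpina1a stays between 758 and 1299.9 CPM there.

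Other genes of hepatocyte secretion were read from lists. Of 36 other hepatocyte plasma protein genes, 10 fell and 0 rose in HFD control against lean, with a median log2 change of -0.58 (-0.28 on plain totals, where 6 fell and 2 rose). The share of all genes called lower was 3.29%, and on plain totals 1.49% were called lower and 15.6% higher. Kng1, which encodes kininogen, fell (log2 change -1.20 ± 0.16, adjusted p = 0.00275), from 3191 ± 551 to 1391 ± 117 CPM. Serpina10, an inhibitor of coagulation factor Xa, fell as well (log2 change -1.76 ± 0.24, adjusted p = 0.00285), from 538 ± 213 to 159 ± 22.2 CPM. The list's count was 4 when HFD control 1 was left out, 5 when HFD control 3 was, and 4 with lean 3 and HFD control 3 both left out. In NM-FGF19 against HFD control 1 of 36 rose (Afm), against 0.282% of all genes, and the median was 0.24. In NM-FGF19 against lean 1 of 36 fell, Serpina10 (log2 change -1.40 ± 0.24, adjusted p = 0.0156), against 0.484% of all genes.

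The positive acute phase genes, which rise in inflammation, are listed apart, and a few of them are also in the plasma protein list. Of 21, 11 fell and 1 rose (Saa3, 3.57 ± 0.70, adjusted p = 0.0139) in HFD control against lean, with a median of -1.41 (9 fell and 1 rose on plain totals, median -1.04). Over all genes 3.29% were called lower and 5.04% higher, and on plain totals 1.49% and 15.6%. Fgb, a fibrinogen chain, had a log2 change of -2.04 ± 0.38 (adjusted p = 0.0103) and Orm2, an orosomucoid, of -2.37 ± 0.44 (adjusted p = 0.0107). Without both lean 3 and HFD control 3, 6 of 21 fell. The count was 6 without HFD control 3 alone and 7 without HFD control 1. In NM-FGF19 against HFD control 0 of 21 were called, by edgeR and by DESeq2. In NM-FGF19 against lean 3 fell (Orm2, Orm3 and Saa1), where 0.484% of all genes were called lower. That count ran from 0 (without NM-FGF19 1) to 5 (without lean 1), and was 1 without lean 2, lean 3, lean 4 or NM-FGF19 4.

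Of 23 liver transcription factors, 2 fell in HFD control against lean: Stat3 (log2 change -1.25 ± 0.29, adjusted p = 0.0214) and Foxa3 (-0.97 ± 0.26, adjusted p = 0.0396). Of all genes 3.29% were called lower. The median of the list was -0.26, and on plain totals it was 0.04, with 1 gene higher and 1 lower (15.6% and 1.49% of all genes). Stat3 carries the signal of interleukin-6, and Foxa3 is a forkhead factor of hepatocytes. The count was 0 without HFD control 3 and 1 without lean 2, lean 3, lean 4 or HFD control 1, and 0 were called in the other comparisons. Hnf4a, a factor that maintains hepatocyte identity, was not called. Hnf4a stood at 931 ± 261, 689 ± 173 and 695 ± 95.2 CPM in lean, HFD control and NM-FGF19.

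The secretory pathway moves new plasma proteins into and out of the endoplasmic reticulum. Of 50 of its genes tested, 5 fell in HFD control against lean, with a median of -0.36, but on plain totals 0 fell, 1 rose and the median was -0.06. Over all genes 3.29% were called lower, and on plain totals 1.49% were called lower and 15.6% higher. Srpr, part of the receptor for the signal recognition particle, had a log2 change of -0.66 ± 0.12 (adjusted p = 0.00848), and Sec61a1, the channel of the translocon, of -0.73 ± 0.17 (adjusted p = 0.0232). The count depended on single libraries: leaving out lean 1 gave 15 and HFD control 2 gave 8, leaving out HFD control 1 or 3 gave 2, and leaving out lean 2, 3 or 4 or HFD control 4 gave 1. In NM-FGF19 against HFD control 0 were called by edgeR and 6 rose by DESeq2 (1.25% of all genes), with a median of 0.32. Sec61a1 stood at 195 ± 34.8, 118 ± 19.5 and 187 ± 31.4 CPM in lean, HFD control and NM-FGF19.

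Partners and receptors of the carriers made up another list. Of 13 tested, 1 rose in HFD control against lean, where 5.04% of all genes were called higher. It was Lrat, which stores retinol as ester in stellate cells (log2 change 1.21 ± 0.33, adjusted p = 0.0459). On plain totals 3 of 13 rose, against 15.6% of all genes. The Lrat call was lost without any one of lean 2, lean 3, lean 4 or the HFD control libraries. The transferrin receptors were not called: Tfr2 stood at 526 ± 88.8, 352 ± 89.1 and 410 ± 51.1 CPM, and Tfrc at 22.3 ± 10.4, 48.8 ± 29.1 and 24.2 ± 9.65 CPM in lean, HFD control and NM-FGF19. Fcgrt, whose product rescues albumin from breakdown, stood at 134 ± 22.01, 188 ± 28.9 and 162 ± 18.8 CPM.

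Hepatocyte genes that are not secreted served as a comparison. Of 25 such genes (urea cycle, gluconeogenesis and bile acid genes among them), 1 rose in HFD control against lean (Cyp3a11, a drug-metabolising enzyme, 3.82 ± 0.74, adjusted p = 0.0132) and 1 fell (Slc10a1, the bile acid uptake carrier, -0.84 ± 0.24). Among all genes 5.04% were called higher and 3.29% lower. The Slc10a1 call was lost without lean 2, lean 4, HFD control 1, HFD control 3 or HFD control 4. On plain totals and with limma voom 0 of 25 were called lower, so it was lost there too. The median of the list was -0.28, and 0.00 on plain totals. With NM-FGF19 on the same diet edgeR called 0 of 25, and the median was -0.33 (-0.45 on plain totals). DESeq2 called 3 of 25 lower there, with no share of all genes given beside it. By edgeR 1 was called lower once HFD control 2 was left out. In NM-FGF19 against lean Bhmt, which remethylates homocysteine, fell (log2 change -1.75 ± 0.28, adjusted p = 0.0122).

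Markers of other liver cells moved with the diet beside the members. In HFD control against lean 5 of 8 Kupffer cell markers fell, with summed levels of 449 to 615 CPM in lean and 143 to 511 CPM in HFD control. Of the markers of recruited macrophages 6 of 8 rose (67.5 to 305 CPM summed in lean, 107 to 331 CPM in HFD control), and of stellate cell markers 4 of 9 rose (196 to 256 CPM, then 433 to 1088 CPM). Sinusoidal endothelium had 2 of 7 higher (338 to 383 CPM, then 358 to 455 CPM), red blood cells 1 of 5 higher, bile duct cells 1 of 5 lower, and lymphocytes (8) and neutrophils (6) had 0 called. Of all genes 5.04% were called higher and 3.29% lower. On plain totals, where 15.6% were called higher and 1.49% lower, 8 of 9 stellate, 4 of 7 endothelial, 3 of 5 red blood cell and 1 of 8 lymphocyte markers rose and 0 of 5 bile duct markers fell. The counts for Kupffer cells (5) and recruited macrophages (6) were equal on both scales. Spp1 is in the lists of both recruited macrophages and bile duct cells, which summed to 305 and 279 CPM in lean 3. Adipocyte markers summed to at most 0.279 CPM in lean and 0.264 CPM in NM-FGF19 and to 0.811 to 21.1 CPM in HFD control, where Cfd rose. In NM-FGF19 against HFD control 0 of these markers were called but Cfd, which fell. No list of these cells summed to more than 1088 CPM in any library, against at least 24364 CPM for Alb. The part of these cells in the members' levels was not tested. The defining hepatocyte markers Alb, Apoa1, Cps1, Hnf4a and Ttr were present in every library, and edgeR called 0 of 5 in any comparison. DESeq2 called Alb lower in HFD control against lean (adjusted p = 0.0153) and higher in NM-FGF19 against HFD control (adjusted p = 3.5e-05).

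The genes whose level followed Alb most closely over the 12 libraries were Cyp17a1 (Pearson r of log2 CPM 0.920), Prdx4 (0.903), Zfp862-ps (0.878), Acsl5 (0.872) and Nab2 (0.865), out of 11533 genes. The libraries share scaling and groups, and these r values are descriptive. These genes were chosen by their r with Alb over the same libraries, so their tests between groups are no independent support. Cyp17a1, a steroid-synthesis enzyme, stood at 51.9 ± 49.6 CPM in lean, 8.27 ± 4.87 in HFD control and 67.2 ± 34.4 CPM in NM-FGF19. Prdx4, a peroxiredoxin of the endoplasmic reticulum, rose in NM-FGF19 against HFD control by 0.59 on the log2 scale (adjusted p = 0.0452). Nab2, a corepressor of early growth response factors, rose there by 1.13 (adjusted p = 0.0156). In HFD control against lean Nab2 fell (log2 change -0.94, adjusted p = 0.0110), as did Prdx4 (-0.51, adjusted p = 0.0201) and Cyp17a1 (-2.65, adjusted p = 0.0355). Zfp862-ps and Acsl5 were called in neither comparison, and Cyp17a1 was not called in NM-FGF19 against HFD control (3.02, adjusted p = 0.107).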

How the data were processed

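The authors deposited raw read counts per gene for 12 liver libraries, made with Trimmomatic, STAR and featureCounts on mm39, per the submitters' processing notes. Their versions, the annotation and the strand setting are not given in the sources read. Per the labels' protocols, libraries came from liver sections with a stranded mRNA kit, and libraries of one group are numbered replicates. Whether each comes from a different mouse is not stated library by library, so p-values measure the spread between libraries.

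Symbols were matched for 52083 gene IDs. Tests used R 4.3.3 and edgeR 4.0.16, with a robust quasi-likelihood F test (TMM, filterByExpr with a minimum count of 10, 2-sided), all 12 libraries in one fit, with Benjamini-Hochberg adjustment over 15274 genes and a threshold of 0.05. The SE is implied by F. Scripts were tested on simulated data. DESeq2 1.42.0, limma 3.58.1 (voom), other scalings and filters, a replicate block and libraries left out were alternatives. Library totals ran from 23743415 to 33257260, the smallest member count was 9216, and the 95% Wilson interval of a member's share was at most 2.04% of that share wide to each side. This covers counting error only. Replicates differed by more than sampling noise (lowest chi-square per degree of freedom 26.9).

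The members and gene lists were chosen with earlier results of these data known. Named genes are the 10 members, the 2 called genes of each list with the smallest adjusted p in each direction, and the 5 genes with the highest r with Alb. The albumin family and its neighbours, the Serpina1 copies, Asgr2, Hnf4a, Sec61a1 in NM-FGF19, Tfr2, Tfrc and Fcgrt were added for their relation to the members. Promoters came from a RefSeq table of GRCm38.p6, which held 8 of 10 members; only the 250 bases before the start were used. Mice killed before treatment were not analysed here.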

Additional observations from a re-analysis of the deposited data

How the results depend on the processing

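Member calls depended on tool and library. In HFD control against lean 2 members were called lower, and 1 on plain library totals, 7 with DESeq2 (6.04% of all genes), 2 with limma voom, 0 to 3 without 1 library and 0 without both lean 3 and HFD control 3. In NM-FGF19 against HFD control 0 were called higher, and 1 without a filter on low counts (Alb, adjusted p = 0.00672), 3 with DESeq2 and 0 to 1 without 1 library. In NM-FGF19 against lean DESeq2 called 1 lower. Over all genes, plain totals changed the split of calls from 770 higher and 502 lower to 2381 and 228 in HFD control against lean, from 43 and 23 to 26 and 30 in NM-FGF19 against HFD control, and from 154 and 74 to 346 and 52 in NM-FGF19 against lean.

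Replicate numbers did not pair the libraries (correlations of same-numbered libraries -0.363 to 0.0712). With the replicate block 1 member was called lower in HFD control against lean (Ambp had an adjusted p of 0.0538), and Alb in NM-FGF19 against HFD control had 0.196.

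Changes of sign occurred in members that were not called in that comparison. On plain totals log2 changes were 0.23 (Rbp4) and 0.11 (Asgr1) in HFD control against lean, -0.13 (Ttr), -0.027 (Rbp4) and -0.062 (Asgr1) in NM-FGF19 against HFD control, and 0.12 (Trf), 0.13 (Apoh), 0.057 (Serpina1a) and 0.052 (Asgr1) in NM-FGF19 against lean, where the members' median became 0.13. The stricter filter gave -0.0041 for Ttr in NM-FGF19 against HFD control. Without 1 library, log2 changes in HFD control against lean ran from -0.15 to 0.20 for Ttr and from -0.19 to 0.084 for Rbp4. In NM-FGF19 against HFD control Ttr ran from -0.10 to 0.17, and in NM-FGF19 against lean Ttr ran from -0.066 to 0.20, Trf from -0.24 to 0.19 and Rbp4 from -0.095 to 0.18. Without both lean 3 and HFD control 3, Ttr was -0.058, -0.0072 and -0.065 in the 3 comparisons, and Trf and Rbp4 in NM-FGF19 against lean were 0.19 and -0.094. The cause was not tested.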
